A study of Mus musculus with 8 samples.

Results

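The genes described here are 10 genes of antigen presentation by the major histocompatibility complex (MHC), 4 on the class I side (H2-K1, H2-D1, B2m and Tap1) and 6 on the class II side (H2-Aa, H2-Ab1, H2-Eb1, Cd74, H2-DMa and H2-DMb1). They were taken by symbol, each from 1 row, out of the 23282 gene rows of the count tables, and all 10 were found. The libraries come from female CD-1 mice, from the liver and from the uterus, and were made by a 3' end method (QuantSeq) that sequences each transcript only close to its poly(A) tail. All animals had been ovariectomized at 6 weeks of age and were dosed by mouth for 7 days, beginning 1 week after surgery. The control group received neither agent, the BPA group received bisphenol A at 200 mg/kg/day, the KRG group received Korean red ginseng at 1.2 g/kg/day, and the combined group received both at these doses. Bisphenol A is a building block of plastics and a weak ligand of estrogen receptors. Each tissue has 4 libraries, 1 for each treatment, so a treatment has no replicate in a tissue. The labels leave unstated if RNA of several mice was pooled in a library and if the 2 tissues were taken from the same mice. CD-1 is an outbred stock, so individual mice may carry different MHC haplotypes, and no genotype was used here.

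MHC class I molecules sit on nearly all nucleated cells and show peptides from inside the cell to cytotoxic T cells. H2-K1 and H2-D1 encode heavy chains, B2m encodes beta-2 microglobulin, the light chain that both share, and Tap1 encodes a subunit of the transporter that carries peptides into the endoplasmic reticulum. MHC class II molecules are made mainly by dendritic cells, macrophages and B cells and show peptides from outside the cell to helper T cells. H2-Aa and H2-Ab1 encode the alpha and beta chains of I-A, H2-Eb1 encodes the beta chain of I-E, Cd74 encodes the invariant chain that guides class II molecules to the compartment where peptides are loaded, and H2-DMa and H2-DMb1 encode chains of the H2-DM molecule, which exchanges the peptide. Class II genes are switched on through the coactivator CIITA and an upstream promoter module whose parts include an X box and a Y box, the latter an inverted CCAAT sequence. Interferon gamma raises both classes.

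Of the 10 genes, 8 lie within or at the edges of the MHC on chromosome 17, in coordinates of GRCm38, the build also called mm10. H2-K1 is at chr17:33996017-34000347 on the minus strand and H2-D1 at chr17:35262730-35267499 on the plus strand, and between them lie H2-DMa (chr17:34119541-34139101, plus), H2-DMb1 (chr17:34153072-34160230, plus), Tap1 (chr17:34187553-34197225, plus), H2-Ab1 (chr17:34257689-34269419, plus), H2-Aa (chr17:34282744-34287823, minus) and H2-Eb1 (chr17:34305867-34316674, plus). B2m is at chr2:122147686-122153083 on the plus strand, and Cd74 lies on a further chromosome. RefSeq promoter sequences of GRCm38.p6 matched 8 of the 10 genes, and H2-Ab1 and Cd74 were not matched. For H2-DMb1, H2-D1 and H2-DMa the RefSeq start lies more than a few bases inside the gene interval given above, which is GENCODE's. The stretches printed for H2-DMb1 and H2-D1 also lie inside it. For H2-DMa the 150 bases before the RefSeq start are chr17:34122682-34122831, far inside its interval. In the 250 bases before the RefSeq start, on either strand, CCAAT was found in 7 of these 8 promoters, against 34.5% of 27025 promoters in the table. The promoter without it was that of H2-DMa, and sequence before the GENCODE start of that gene was not searched. The X box core was found in H2-Eb1, 92 bases before the start, and in H2-DMb1, 95 bases before it, against 0.855% of all promoters. An exact match to the pattern used for the core of the interferon-stimulated response element was found in B2m alone of the 8, against 3.04% of all promoters. The X box core was likewise 1 exact pattern, and variants of these patterns were not searched for. A promoter without a match is therefore not shown to lack the element. Examples are H2-K1 and H2-D1 for the interferon element and H2-Aa for the X box. The CCAAT pentamer did not overlap the X box match in H2-Eb1 or H2-DMb1. The stretches before the RefSeq starts of H2-Eb1 (chr17:34305767-34305866) and H2-DMb1 (chr17:34153091-34153190) are shown because these genes varied most among the class II genes below. Capitals mark the X box core and CCAAT or its reverse complement ATTGG, and both sequences read 5′ to 3′ on the gene's strand.
H2-Eb1: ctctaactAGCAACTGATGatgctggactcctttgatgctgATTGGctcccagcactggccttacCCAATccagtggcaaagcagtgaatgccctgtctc
H2-DMb1: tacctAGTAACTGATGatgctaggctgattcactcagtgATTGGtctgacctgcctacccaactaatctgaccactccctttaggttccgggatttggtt
Matching stretches upstream of the RefSeq starts of H2-K1 (chr17:34000349-34000498, minus strand) and H2-D1 (chr17:35262883-35263032, plus strand) are shown. They were chosen because the levels of the 2 genes parted while their upstream sequence is nearly shared in the reference genome. The upstream sequence in these CD-1 mice is not known here, and its part in the levels was not tested. A local alignment of the reference upstream sequences of H2-K1 and H2-D1 had 161 identical positions of 177 aligned, 91%. Capitals mark the inverted CCAAT, which lies 16 bases before the RefSeq start in H2-K1 and 76 in H2-D1. The H2-D1 stretch stops short of its start and leaves out a further CCAAT match, 53 bases before it.
H2-K1: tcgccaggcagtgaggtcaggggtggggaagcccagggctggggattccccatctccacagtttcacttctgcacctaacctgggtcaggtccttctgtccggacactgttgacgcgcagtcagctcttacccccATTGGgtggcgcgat
H2-D1: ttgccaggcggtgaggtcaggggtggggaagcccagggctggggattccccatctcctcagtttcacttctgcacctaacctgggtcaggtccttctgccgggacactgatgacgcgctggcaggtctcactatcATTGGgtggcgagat

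Library totals ran from 12372073 to 15290950 counts, and Rn45s, the ribosomal RNA precursor, took 8.30% to 12.4% of them. Levels are CPM, counts scaled to a common library total, and where 4 levels follow a gene they are the single control, BPA, KRG and combined libraries in that order. Levels are compared between libraries and not between genes, since 3' counts are not scaled per length. Hepatocyte and uterine markers matched the tissue labels. Several libraries held markers of other tissues. Albumin (Alb) stood at 239, 4.81, 407 and 2.09 CPM in uterus. The summed bladder markers in uterus were 338, 5930, 68.4 and 10260 CPM, the summed adipocyte markers reached 12693 CPM in the KRG uterus library against 4991 to 5534 CPM in the others, and the summed acinar pancreas markers reached 991 CPM in the BPA liver library against 1.57 to 7.06 CPM in the others. A level in bulk RNA cannot tell fewer cells of a type from less RNA per cell. Intervals in brackets are 95% exact Clopper-Pearson intervals of a ratio of 2 libraries. They cover counting error only, and the reads are not known to be independent molecules.

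H2-Aa, H2-Ab1, H2-Eb1 and Cd74 of the class II side stood several times higher in uterus than in liver, without overlap of libraries. At lower levels this also held for H2-DMa, with a ratio of tissue means of 4.65. For H2-DMb1 that ratio was 4.21, but its libraries overlapped between tissues. The class I heavy and light chains had no higher mean in uterus. H2-Aa was at 7.65, 8.94, 12.9 and 19.6 CPM in liver and 133, 106, 60.5 and 68.5 CPM in uterus. Cd74 was at 6.21, 4.63, 4.93 and 8.49 CPM in liver and 70.9, 57.5, 59.9 and 26.3 CPM in uterus. For both genes the 4 uterus libraries lay above the 4 liver libraries without overlap. H2-Ab1 was at 6.15, 4.47, 6.31 and 9.21 CPM in liver and 62.8, 43.8, 37.5 and 26.1 CPM in uterus, again without overlap. H2-Eb1 was at 11.2, 4.63, 0.548 and 5.50 CPM in liver and 47.1, 82.6, 66.5 and 30.3 CPM in uterus, and its lowest uterus library also stood above its highest liver library. Mean levels over the 4 treatments were 12.3 ± 5.35 CPM in liver against 91.9 ± 33.8 CPM in uterus for H2-Aa, and 6.06 ± 1.75 CPM against 53.6 ± 19.2 CPM for Cd74 (SD, n = 4 libraries of different treatments). The ratio of tissue means was 7.50 for H2-Aa, 6.51 for H2-Ab1, 10.3 for H2-Eb1 and 8.85 for Cd74.

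**Figure D1:**
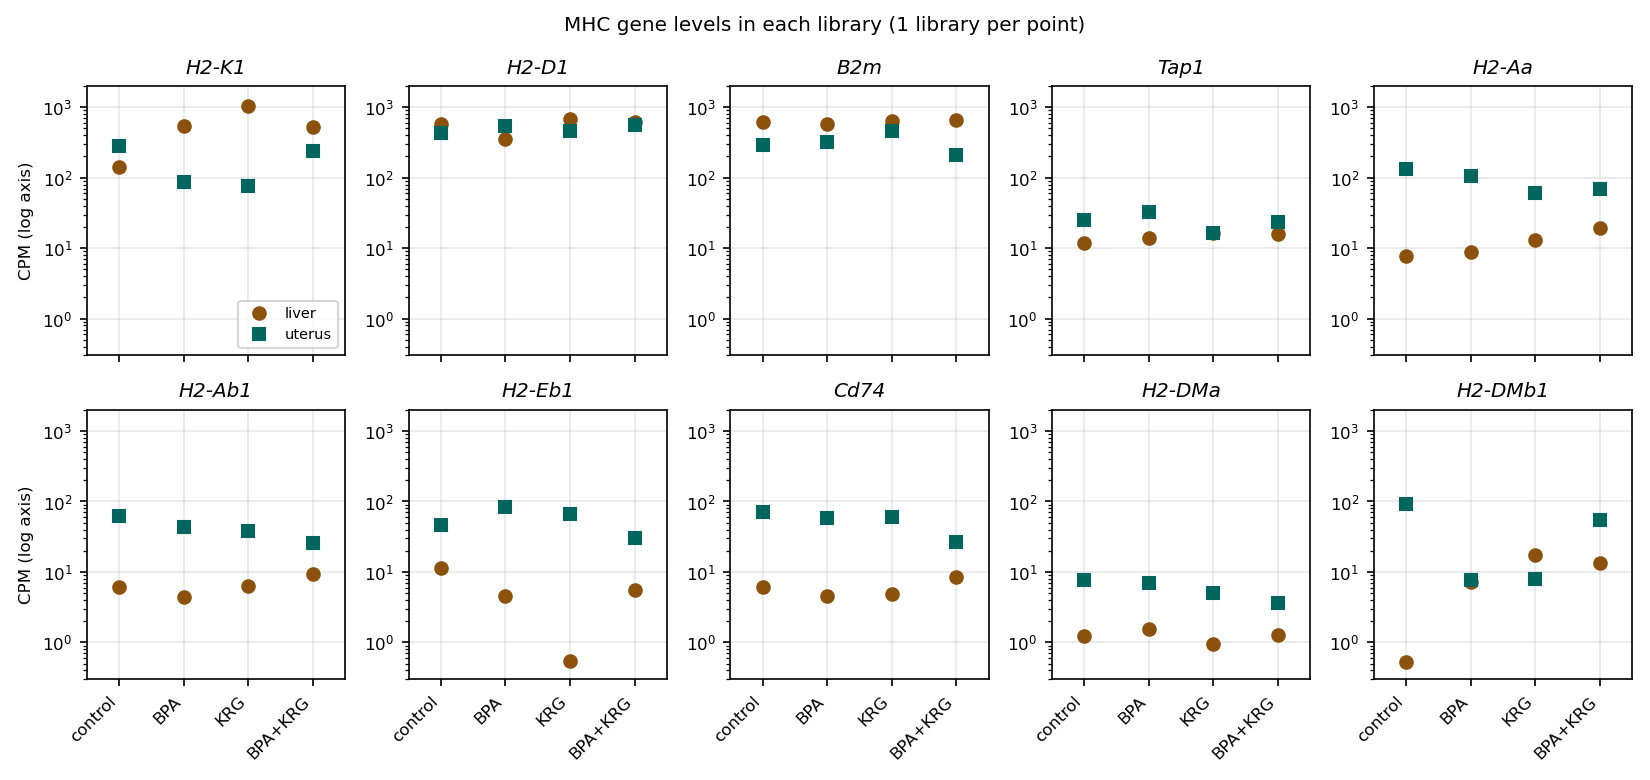
Levels of the 10 MHC genes in CPM (log axis), with liver as circles and uterus as squares, 1 library per point and treatments along the x axis. H2-Aa, H2-Ab1, H2-Eb1 and Cd74 lie higher in every uterus library than in any liver library, while H2-K1 and H2-DMb1 cross between tissues.

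Tissues were tested with edgeR's quasi-likelihood test over all 8 libraries with treatment as a covariate, on the 8687 gene rows with a mean of at least 10 CPM, which 9 of the 10 genes passed (H2-DMa did not). At a Benjamini-Hochberg adjusted p under 0.05, 6 of these 9 genes were called, 4 higher in uterus and 2 higher in liver. The test called 73.2% of all gene rows, 39.2% as higher in uterus and 34% as higher in liver, so 6 of 9 is a share near the background. H2-Ab1, H2-Eb1, H2-DMb1 and Cd74 averaged under 10 CPM in liver and passed through their uterus levels, so their number is no support for a direction. After TMM scaling, the log2 difference of uterus over liver was 2.19 ± 0.41 (SE) for H2-Aa (edgeR adjusted p = 0.0042), 1.95 ± 0.33 for H2-Ab1 (edgeR adjusted p = 0.0027), 2.86 ± 0.78 for H2-Eb1 (edgeR adjusted p = 0.018) and 2.38 ± 0.38 for Cd74 (edgeR adjusted p = 0.0022). H2-Eb1 lost its call in 2 of 13 alternative analyses, with an adjusted p of up to 0.077. Total counts in place of TMM moved the median log2 difference of all rows from 0.09 to 0.81 and the calls of all rows from 3407 higher in uterus and 2951 in liver to 5214 and 1716, and all differences below are with TMM unless total counts are named.

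The class I side divided by gene. B2m was at 615, 583, 628 and 650 CPM in liver and 290.2, 321, 462 and 209 CPM in uterus. All 4 liver libraries lay above all 4 uterus libraries, and the log2 difference of uterus over liver was -1.73 ± 0.25 (SE, edgeR adjusted p = 0.0015). H2-D1 was at 573, 348, 674 and 626 CPM in liver and 430, 548, 461 and 555 CPM in uterus, and the tissues overlapped. Its log2 difference was -0.85 ± 0.24 with TMM (edgeR adjusted p = 0.020) but -0.12 with total counts (edgeR adjusted p = 0.66), so its call depends on the scaling. Tap1 was at 11.8, 13.9, 16.2 and 15.7 CPM in liver and 25.2, 32.7, 16.4 and 23.8 CPM in uterus, with every uterus library above every liver library. Its log2 difference was 0.01 ± 0.22 with TMM (edgeR adjusted p = 0.96) and 0.74 with total counts (edgeR adjusted p = 0.032). H2-K1, whose levels follow below, had a log2 difference of -2.44 ± 0.90 and narrowly missed the threshold (edgeR adjusted p = 0.051), and over all 14 analyses its difference ran from -3.31 to -1.71. On the class II side, H2-DMb1 differed by 0.77 ± 1.41 (edgeR adjusted p = 0.64) and its sign turned between analyses, from -0.44 to 1.83. H2-DMa, tested with a minimum of 1 CPM, was 1.23 ± 0.31 higher in uterus (edgeR adjusted p = 0.012).

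**Figure D2:**
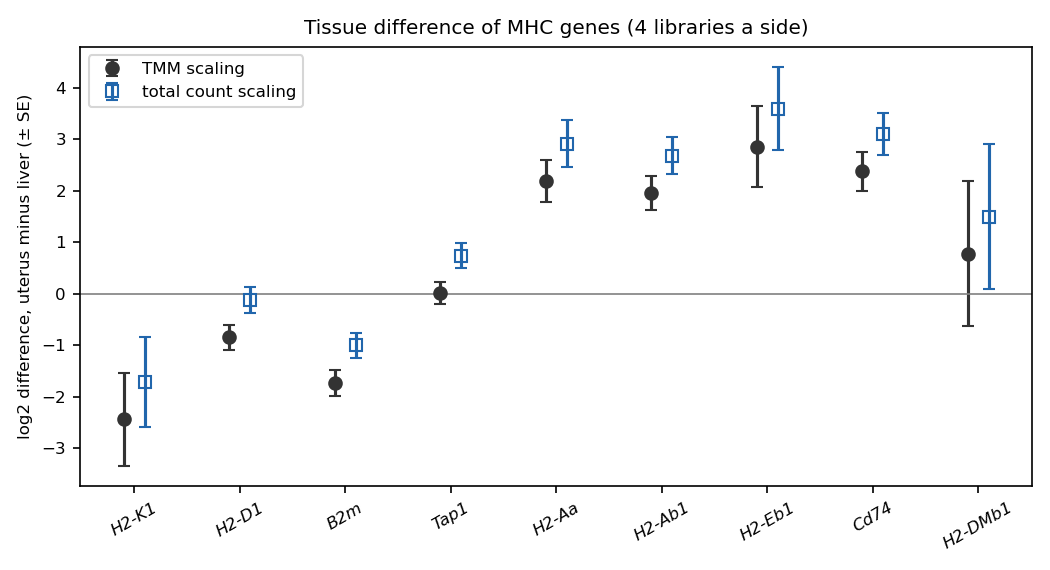
Log2 difference of uterus minus liver for the 9 tested genes, with bars of ± SE from edgeR, after TMM scaling (filled circles) and total count scaling (open squares). H2-Aa, H2-Ab1, H2-Eb1 and Cd74 lie above 0 and B2m below 0 under both scalings, and Tap1 moves from 0.01 to 0.74.

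Genes that work with the 10 were called in shares that depend on the scaling, and the 39.2% of all rows higher in uterus and 34% higher in liver stand beside each count. Of 12 genes of class I peptide loading, 8 were higher in liver and 0 in uterus with TMM, but 2 and 1 with total counts, and their median log2 difference of uterus over liver moved from -0.75 to -0.02. The chaperone calreticulin (Calr) had a difference of -1.66 ± 0.24, the trimming peptidase Erap1 of -1.21 ± 0.13 and Tapbpl, a relative of tapasin, of -1.18 ± 0.17 (SE, TMM). Of 23 listed other class I chains 7 passed the filter, and of these 7 were higher in liver with TMM and 5 with total counts. They were led by Azgp1, a secreted class I-like protein, at -8.50 ± 1.81 and by H2-Q10, a secreted class I molecule of liver, at -7.90 ± 1.47, both of which passed through their liver levels. Of 4 measured further class II genes, 1 was higher in uterus (Ctss, the protease that trims the invariant chain, 1.16 ± 0.15) and 1 in liver. Of 10 measured regulators of MHC genes, 4 were higher in uterus and 1 in liver with TMM, a share near that of all rows, and 8 and 0 with total counts. Among them the kinase Jak2 had a difference of 1.95 ± 0.19. Of 5 measured interferon gamma targets, 2 were higher in uterus and 3 in liver, with Gbp2 at 2.31 ± 0.35, Igtp at -2.22 ± 0.24 and Iigp1 at -4.26 ± 0.38.

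Several dendritic cell markers stood higher in uterus, others overlapped between tissues, and macrophage markers were divided. The lectin Clec10a was at 1.77 to 2.16 CPM in liver and 72.4 to 93.6 CPM in uterus, and the integrin Itgax at 0.231 to 1.05 CPM and 9.16 to 49.9 CPM. Irf8, Fscn1, Naaa, Batf3, Siglech and Cd209a also lay higher in every uterus library than in any liver library. Flt3, Zbtb46, Xcr1, Clec9a, Ccr7 and Ccl22 were at 3.31 CPM or less in every library and overlapped between tissues. Only 4 of the 14 dendritic cell markers passed the filter, 3 of them with under 10 CPM in every liver library, so their number called is no support. Of 12 measured macrophage markers 1 was higher in uterus and 5 in liver, led by the Kupffer cell lectin Clec4f at -7.04 ± 0.71 (SE), and with total counts these were 3 and 4. The summed B cell markers were 0.540 to 2.42 CPM in liver and 26.7 to 32.2 CPM in uterus. Ebf1, a transcription factor of B cells and also of adipocytes, made up most of the uterus sum at 22.2 to 28.8 CPM, while Pax5 was at 0 in all 8 libraries. The summed level of 10 leukocyte markers was 97.4, 103, 81.1 and 124 CPM in liver and 303, 293, 257 and 352 CPM in uterus. The summed level of H2-Aa, H2-Ab1, H2-Eb1 and Cd74 was 31.3, 22.7, 24.7 and 42.8 CPM in liver and 314, 290, 224 and 151 CPM in uterus. Set over the leukocyte sum, class II was 0.219 to 0.344 in liver and 0.430 to 1.04 in uterus, without overlap of libraries. Lcp1 was the largest single part of the leukocyte sum in every liver library, at 36.4 to 54.1 CPM. Its log2 difference of uterus over liver was -0.71 ± 0.17 (SE, TMM), against 2.57 ± 0.18 for Cd52 and 1.24 ± 0.14 for Laptm5. Ratios without Lcp1 were not taken, so a separation of the tissues on this scale is not shown to hold without it. Over the summed 15 macrophage markers class II was 0.0349 to 0.0472 in liver and 0.268 to 0.718 in uterus, again without overlap. Over the summed 14 dendritic cell markers, which were 17.4 to 29.2 CPM in liver and 159 to 223 CPM in uterus, it was 1.06 to 1.56 in liver and 0.677 to 1.98 in uterus, and on this scale the tissues overlapped. Clec10a was the largest single part of that marker sum in every uterus library. The part of cell makeup in the tissue difference was not tested.

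**Figure D3:**
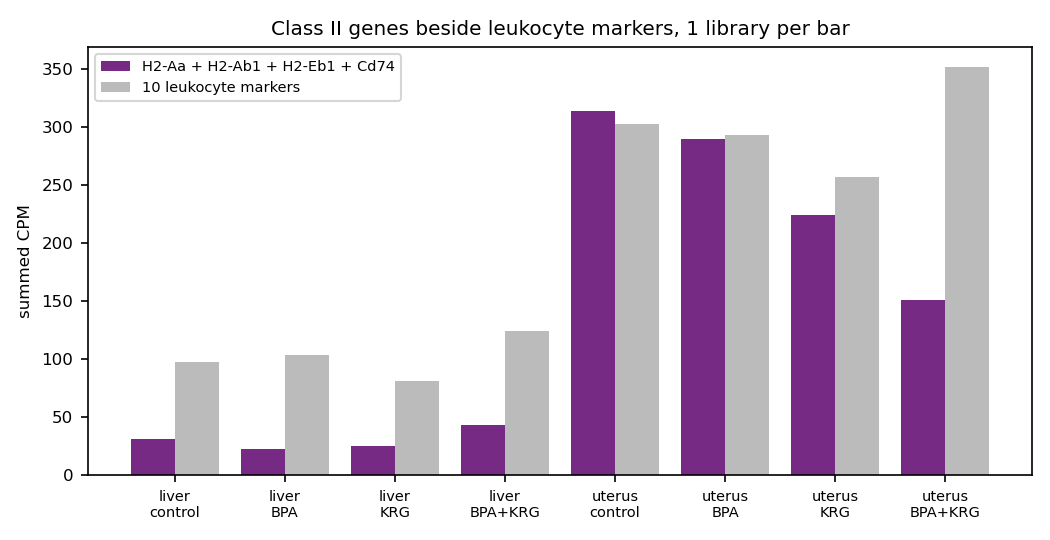
Summed CPM of H2-Aa, H2-Ab1, H2-Eb1 and Cd74 (purple bars) beside the summed CPM of 10 leukocyte markers (grey bars), 1 library per bar pair. In the combined uterus library the class II sum is 151 CPM, the lowest of the uterus libraries, while the leukocyte sum is 352 CPM, the highest. The marker Lcp1 is 75.1 CPM of that leukocyte sum, against 30.6 to 52.8 CPM in the other uterus libraries.

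H2-K1, H2-DMb1 and, in liver, H2-Eb1 differed many-fold between libraries of the same tissue. The chains that H2-K1 and H2-DMb1 pair or act with differed less. H2-K1 in liver was at 140, 538, 1055 and 529 CPM. The control library was lowest and the KRG library highest, 7.54-fold apart (7.21 to 7.89), and only 0.939% of the 6709 liver gene rows with a mean of at least 10 CPM had as wide a range. In uterus H2-K1 was at 286, 86.2, 76.4 and 237 CPM, so the control and combined libraries were high and the BPA and KRG libraries low, 3.74-fold apart at most (3.49 to 4.02). H2-D1, the other heavy chain, spanned 1.93-fold in liver and 1.29-fold in uterus. B2m spanned 1.11-fold in liver and 2.21-fold in uterus. The ratio of H2-K1 to H2-D1 within a library was therefore 0.244, 1.55, 1.57 and 0.845 in liver and 0.666, 0.157, 0.166 and 0.427 in uterus, and was lowest in the control library in liver but highest there in uterus.

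H2-DMb1 in liver was at 0.523, 7.09, 17.4 and 13.5 CPM, where the control value rests on 8 counts. The KRG liver library was 33.3-fold above control (16.6 to 77.9). In uterus H2-DMb1 was at 92.0, 7.65, 7.93 and 54.5 CPM, and the control library was 12.0-fold above the BPA library (9.84 to 14.8). H2-DMb1 was thus extreme in the same liver libraries as H2-K1, lowest in control and highest in KRG, and in uterus both genes were high in control and combined and low in BPA and KRG. H2-DMa, the partner chain of H2-DM, was at 1.24, 1.54, 0.959 and 1.29 CPM in liver and 7.77, 7.00, 5.004 and 3.65 CPM in uterus, ranges of 1.61-fold and 2.13-fold. The ratio of H2-DMb1 to H2-DMa ran from 0.421 to 18.1 in liver and from 1.09 to 14.9 in uterus.

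H2-Eb1 in liver ran the other way. Its levels, 11.2 CPM in control and 0.548 CPM in KRG, were 20.5-fold apart (10.2 to 48.3), and the KRG value rests on 8 counts. In uterus its highest library was BPA and its lowest the combined library, 2.72-fold apart (2.44 to 3.04). The alpha chain of I-E, the partner of H2-Eb1, could not be compared, since H2-Ea has no row and H2-Ea-ps was at 0.137 CPM or less. The ratio of H2-Eb1 to H2-Ab1, a chain of I-A, ran from 0.087 to 1.83 in liver and from 0.75 to 1.89 in uterus. By contrast, H2-Aa over H2-Ab1 ran from 1.24 to 2.12 in liver and from 1.61 to 2.62 in uterus, and Cd74 over H2-Ab1 ran from 0.783 to 1.03 in liver and from 1.01 to 1.60 in uterus. Tap2, the partner subunit of Tap1, is outside the 10 genes and was looked at after its values were seen. It was at 125, 58.4, 26.9 and 85.2 CPM in liver, highest in control and lowest in KRG as for H2-Eb1, while Tap1 in the same libraries spanned 1.38-fold. In uterus Tap2 was at 64.6, 113, 64.1 and 58.0 CPM, again highest and lowest in the same libraries as H2-Eb1. The BPA liver library, which held the pancreas markers, was neither the highest nor the lowest for H2-K1, H2-DMb1, H2-Eb1 or Tap2. The part of pancreas in these levels was not tested. The control and KRG liver libraries, which were the extremes for all 4 genes, held skeletal muscle markers, with sums of 181, 2.85, 493 and 1.70 CPM over the 4 liver libraries. Muscle was thus high in both extremes, and its part in these ranges was not tested.

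**Figure D4:**
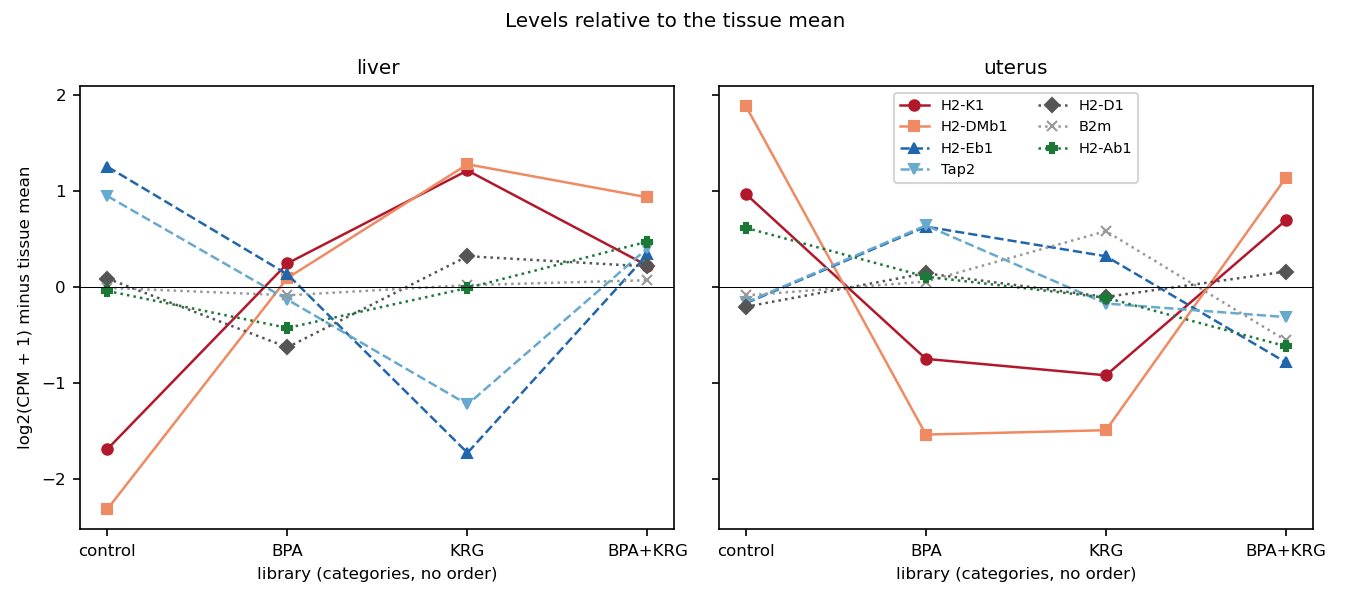
Log2(CPM + 1) minus the tissue mean for 7 genes in the 4 liver libraries (left) and the 4 uterus libraries (right), 1 library per point, with lines that only join the points of a gene. H2-K1 and H2-DMb1 run together in both tissues, H2-Eb1 and Tap2 run opposite to them in liver, and H2-D1, B2m and H2-Ab1 stay closer to 0 in liver.

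Ranges of 4-fold or more between libraries were found in 1.94% of tested gene rows in liver and 4.67% in uterus. Among the genes tested, H2-K1 alone of 5 reached it in liver and H2-DMb1 alone of 9 in uterus, and H2-DMb1 and H2-Eb1 in liver were under the filter. Over the 1271.5 kb from H2-K1 to H2-D1 the table holds 87 genes. In liver 3 of the 38 tested there ranged 4-fold or more (H2-K1, Tap2 and the heat shock gene Hspa1b), a share of 7.89%, and in uterus 2 of 47 (H2-DMb1 and the complement gene Cfb), a share of 4.26%. The median range of these genes was 1.36-fold in liver and 1.63-fold in uterus, against 1.35-fold and 1.47-fold over all tested rows. Wide ranges stood beside narrow ones, as at the neighbours Tap2 and Tap1 in liver.

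**Figure D5:**
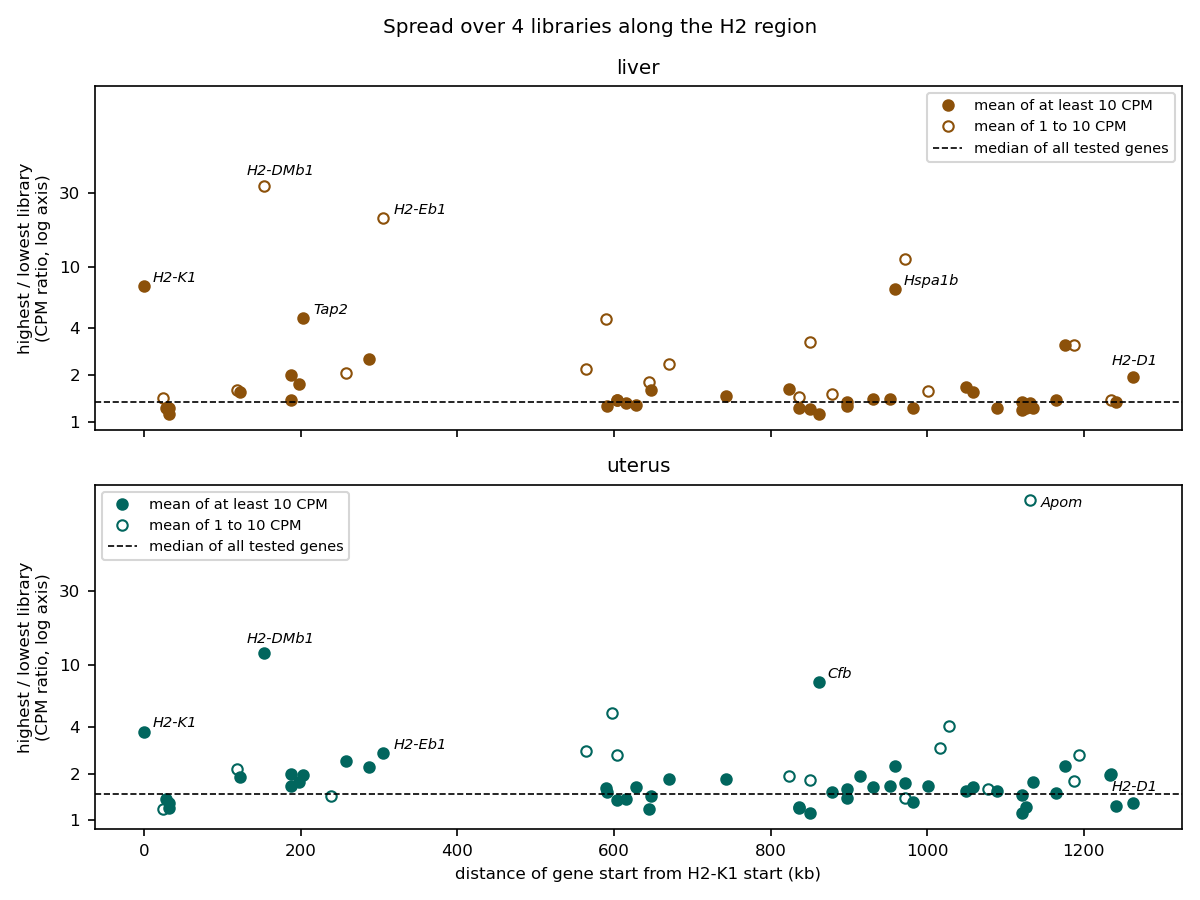
Ratio of the highest to the lowest of the 4 libraries of a tissue (log axis) for genes along the H2 region against the distance from the H2-K1 start in kb, for liver (top) and uterus (bottom). Filled points have a mean of at least 10 CPM, open points 1 to 10 CPM, and the dashed line is the median of all tested genes, 1.35-fold in liver and 1.47-fold in uterus. The point at 116-fold in uterus is Apom, a liver apolipoprotein gene with a mean of 7.81 CPM there.

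Several properties of the sequences bear on how these reads can be assigned. Within the last 300 bases of protein-coding transcripts, 9.54% of the 50-base stretches of H2-K1 (88 of 922) and 13.5% of those of H2-D1 (76 of 561) were shared exactly with another gene, H2-K1 sharing with 24 genes that include H2-D1. For Tap1 4.92% were shared, all with Tap2. The other 7 genes shared no such stretch. How reads with several matches were counted is not stated, nor how well alleles unlike the reference genome aligned, so levels of H2-K1 and H2-D1 are uncertain and haplotype cannot be told apart from treatment in any single library. B2m overlaps Patl2 on the opposite strand over 5398 bases, H2-DMa overlaps Brd2 over 3094 and Tap1 overlaps Psmb9 over 212, and whether counting used strand is not given. Patl2 was at 0 in every library, but Brd2 was at 221 to 639 CPM and Psmb9 at 22.1 to 48.6 CPM. Any part of their reads in the levels of H2-DMa and Tap1 was not tested.

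BPA and KRG were each tested within a tissue in an additive model of both, in which 2 libraries with the agent were set against 2 without and 1 residual degree of freedom remained. None of the genes tested was called by edgeR for BPA in liver (0 of 5), BPA in uterus (0 of 9), KRG in liver (0 of 5) or KRG in uterus (0 of 9). The same test called 0, 2.22%, 0 and 0% of all gene rows in that order. DESeq2 also called 0 of these genes in all 4, beside 26, 415, 49 and 24 of all gene rows. At an unadjusted p under 0.05 edgeR gave 362 of 6709, 1252 of 9198, 220 of 6709 and 415 of 9198 gene rows. Of the MHC genes tested there were 0, 2, 1 and 2. With BPA in uterus these were H2-Ab1, with a log2 difference of -0.58 ± 0.21 (SE, edgeR adjusted p = 0.32), and Cd74, with -0.80 ± 0.29 (edgeR adjusted p = 0.32). With KRG they were H2-Aa in liver (0.91 ± 0.21, edgeR adjusted p = 0.92), and H2-Aa (-0.79 ± 0.22) and H2-Ab1 (-0.65 ± 0.21) in uterus (edgeR adjusted p = 0.999 for both). Bladder markers and Alb differed between these uterus libraries with and without BPA, and their part in the levels above was not tested.

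H2-Aa lay higher in both KRG pairs of liver and lower in both KRG pairs of uterus. In liver the KRG library was 1.68-fold above control (1.33 to 2.14) and the combined library 2.19-fold above BPA (1.75 to 2.75). In uterus the control library was 2.20-fold above KRG (2.02 to 2.40) and the BPA library 1.54-fold above the combined library (1.42 to 1.67). The difference between these effects was -1.68 ± 0.29 on the log2 scale (SE, edgeR unadjusted p = 0.0014, adjusted p = 0.91), and DESeq2 gave -1.68 ± 0.42 with an adjusted p of 0.033, so the call depends on the tool. Other markers differed with KRG in these libraries. In liver the summed macrophage markers were 663, 491, 707 and 925 CPM and the summed neutrophil markers 8.70, 9.48, 18.4 and 94.1 CPM, both higher in each KRG pair. In the KRG uterus library the neutrophil sum was 1074 CPM, against 172 to 307 CPM in the others, and the adipocyte sum was also the highest. The part of these cells in the H2-Aa levels was not tested. H2-D1 was lower with BPA in both liver pairs and higher with BPA in both uterus pairs, and that difference was 0.66 ± 0.29 (SE, edgeR adjusted p = 0.44). No gene of the 9 was called for a difference of the BPA or KRG effect between tissues by edgeR, against 3.04% and 0% of all rows. At an unadjusted p under 0.05 edgeR gave 0 of the 9 for BPA, beside 1102 of all 8687 rows. For KRG it gave 2 (H2-Aa and H2-Ab1), beside 460 rows. DESeq2 called 0 and 1 of the 9, beside 455 and 19 rows.

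In single pairs of libraries, which carry no test, the genes at least 2-fold apart were mostly those with wide ranges. In liver, of the 5 genes tested, 1 was higher with BPA than control (H2-K1, against 4.84% of all rows at least 2-fold apart), 1 with KRG than control (H2-K1, against 2.7%), 2 with both agents than control (H2-K1 and H2-Aa, against 2.8%), 1 with both than with BPA (H2-Aa, against 4.16%) and 0 with both against KRG (2.97%), where H2-K1 was 1.99-fold lower. None of the 5 was at least 2-fold lower in these liver pairs. In uterus, of 9, H2-K1 and H2-DMb1 were at least 2-fold lower with BPA than control (against 5.15% of all rows), and H2-K1, H2-DMb1 and H2-Aa were lower with KRG than control (against 4.51%). With both agents against control, H2-Ab1 and Cd74 were lower (against 9.52%). With both against BPA, H2-K1 and H2-DMb1 were higher and H2-Eb1 and Cd74 lower (against 4.03%), and with both against KRG the first 2 were higher and B2m, H2-Eb1 and Cd74 lower (against 12.4%). The median log2 ratio of the genes tested with both agents against control was 0.41 in liver, beside 0.04 over all rows, and -0.63 in uterus, beside -0.03. These pairs share control or treated libraries and are not independent of one another.

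The combined uterus library stood lowest for H2-Ab1, H2-Eb1, H2-DMa and Cd74 and for B2m. Its class II sum was 0.430 of its leukocyte sum, beside 0.872 to 1.04 in the other uterus libraries. Its class II sum of 151 CPM was the lowest of the 4, against 224 to 314 CPM, and its leukocyte sum of 352 CPM the highest, against 257 to 303 CPM. Of that sum Lcp1 was 75.1 CPM, against 30.6 to 52.8 CPM in the other uterus libraries. Other leukocyte markers stood out less, with Laptm5 at 143 CPM beside 140 CPM in control. Ptprc was at 17.2 CPM beside 17.6 CPM in control, and Cd52 at 73.3 CPM beside 77.4 CPM in KRG. The summed macrophage and dendritic cell markers were 563 and 223 CPM in the combined library, both the highest of the uterus libraries, but single markers were divided. The macrophage marker Csf1r stood at 44.7 CPM there against 28.2 to 39.0 CPM, and Itgax at 49.9 CPM against 9.16 to 12.0 CPM. The macrophage marker Mrc1 was lowest there, at 42.6 CPM against 51.5 to 58.2 CPM. At low levels, the dendritic cell markers Xcr1, Clec9a and Batf3 were also lowest there. Clec10a was at 72.5 CPM, beside 72.4 CPM in control. This library also held the highest bladder sum and the highest skeletal muscle sum, 1596 CPM against 89.2 to 209 CPM in the other uterus libraries, and the part of these tissues in its levels was not tested.

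Lists around the 10 genes gave little by treatment. By edgeR's adjusted p over all rows, 1 gene in these lists was called for an agent within a tissue, H2-Q10 with BPA in uterus (log2 difference -4.77 ± 0.57, SE, adjusted p = 0.020), of 5 measured other class I genes. H2-Q10 stood at 20.3, 1.53, 37.1 and 0.608 CPM in uterus, in the order of Alb in the same libraries. For a BPA effect that differs between tissues, H2-Q10 and Azgp1 were called lower in uterus (edgeR adjusted p = 0.023 and 0.010). None of the genes measured for class I loading, further class II genes, MHC regulators, interferon gamma targets or type I interferon targets was called for BPA or KRG in either tissue. Over the 5 uterus pairs of libraries, the 6 measured interferon gamma targets gave at most 1 at least 2-fold higher (BPA against control) and at most 2 lower (both against BPA), and the 5 measured type I interferon targets at most 1 higher and at most 2 lower, in different directions from pair to pair.

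Genes were sought whose levels moved most like the mean of the class II or of the class I genes named next. Likeness was taken from log2(CPM + 1), centred within each tissue over the 8 libraries. The 5959 genes searched averaged at least 10 CPM in each tissue. Closest to the mean of H2-Aa, H2-Ab1, H2-Eb1 and Cd74 were Antxr2, Pth1r, Zfp292, Chic1 and Trim14, with root mean square differences of 0.138 to 0.163 log2 units, beside a median of 0.415 over all genes. Closest to the mean of H2-K1, H2-D1, B2m and Tap1 were Snx6, Eid1, Dut, Mllt6 and Slc35e3, at 0.0952 to 0.116, beside a median of 0.315. Antxr2, for example, was at 11.9, 8.63, 7.06 and 12.9 CPM in liver and 27.6, 22.6, 24.8 and 14.9 CPM in uterus, lowest in the combined library in uterus as for the class II sum. In liver Antxr2 was lowest in KRG, as was the class II mean (-0.452), while the class II sum was lowest in BPA. H2-Eb1 was lowest in KRG there and H2-Aa in control, so this mean joins genes that ran apart in liver. None of the 10 genes found belongs to the lists of MHC genes or interferon targets.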

How the data were processed

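The authors deposited raw counts per gene, 1 file per library and named by symbol, with no other unit. Bowtie2, edgeR and the mm10 build are named, per the submitters' processing notes. Not given in the sources used here are versions, the counter, the use of strand and the handling of reads with several matches. The 10 genes and all gene lists were chosen with earlier results of these data known, and the ranges over libraries, chain ratios, the H2 region and Tap2 were described after their values were seen. CPM are counts over a library's total. Tests used edgeR 4.0.16 in R 4.3.3 (TMM, quasi-likelihood, Benjamini-Hochberg over all rows with a mean of at least 10 CPM, adjusted p under 0.05), with 3 residual degrees of freedom for tissue, 1 within a tissue and 2 for differences between tissues. Samples not known to be separate animals make these p-values a measure of the spread between libraries only. A pair of libraries had no test, and a gene at least 2-fold apart was counted. Alternatives were DESeq2 1.42.0, its size factors, total counts, totals without Rn45s, a minimum of 1 CPM, no filter and leaving out each library. Genes outside the 10 were named as the 3 with the largest ratio of a list in the comparison described. Exceptions named as markers are Tap2, Clec4f, Csf1r, Mrc1, Ebf1, Pax5, Lcp1 and other leukocyte markers, and the dendritic cell markers. Other exceptions are H2-Ea-ps and genes named with their position or count. Positions are from GENCODE M21, and alignments used Biopython 1.88 in Python 3.11.15. Scripts were tested on simulated data.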

Additional observations from a re-analysis of the deposited data

How the results depend on the processing

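Counts of the genes called by edgeR for tissue ran from 5 to 8 over the alternatives and from 5 to 6 when 1 library was left out, beside 6. H2-Aa, H2-Ab1, Cd74 and B2m were called in all 14 analyses, H2-D1 in 8, H2-K1 in 6 and Tap1 in 1. Within a tissue, no alternative called any of the genes for BPA or KRG. For a KRG effect that differs between tissues, DESeq2 called 1 (H2-Aa), beside 19 of 8687 rows. For this effect edgeR called 0, with every library left out in turn too. For pairs in liver, lowering the minimum to 1 CPM or dropping it let H2-DMb1, H2-Eb1 and others in. The genes at least 2-fold apart then numbered 3 for BPA against control, 1 for both against KRG, 3 for KRG against control, 2 for both against BPA and 4 for both against control. Both against KRG in liver also gave 1 with TMM, with DESeq2 size factors and without Rn45s, since H2-K1 lay at 1.99-fold. Ranges of at least 4-fold in liver numbered 3 with a minimum of 1 CPM or none, beside 1. No paired analysis was possible because each group has 1 library, so groups share fewer than 2 replicate numbers. The tissue test did take treatment as a covariate. At 8 counts, the lowest levels of H2-DMb1 and H2-Eb1 in liver leave intervals several-fold wide.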
